A study of Rattus norvegicus with 288 samples.

Results

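The serine and asparagine synthesis enzymes described here are 4 genes, Phgdh, Psat1, Psph and Asns, of 14218 rat genes that carried a single gene symbol on the array. They were chosen from the change measured in liver 24 h after temsirolimus alone, where their values stood out in an earlier look at these data, so that comparison is given below as a description and no test of it is used. A gene's level was read from the probe set with the highest mean in a tissue, and each of the 4 genes had 1 probe set. The probe set of Phgdh, 1367811_at, belongs to the protein-coding gene with Entrez ID 58835 on chromosome 2 (chr2:188595700-188624789, build GRCr8), and that of Psat1, 1372665_at, to gene 293820 on chromosome 1 (chr1:222623553-222646187). The probe set of Psph, 1375964_at, belongs to gene 304429 on chromosome 12 (chr12:32527091-32541182) and that of Asns, 1387925_at, to gene 25612 on chromosome 4 (chr4:36752061-36769970). The position of the probes within the genes was not analysed here.

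Cells make serine from an intermediate of glycolysis in a chain of steps. Phosphoglycerate dehydrogenase (Phgdh) opens the chain by oxidation, phosphoserine aminotransferase (Psat1) adds the amino group from glutamate, and phosphoserine phosphatase (Psph) releases free serine. Serine is the source of glycine and of one-carbon units for the folate cycle. Asparagine synthetase (Asns) makes asparagine from aspartate with nitrogen from glutamine. In liver these genes are known to respond to dietary protein and to amino acid supply, and the transcription factor ATF4, whose translation is raised by stress kinases and by the kinase mTORC1, is known to activate them. Temsirolimus is an inhibitor of mTORC1, and sunitinib and sorafenib are oral inhibitors of receptor and other kinases.

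The samples came from 96 male Sprague-Dawley rats, 7 to 8 weeks old and fed without restriction, each of which gave bone marrow from a femur, the apex of the heart with both ventricles, and liver. Every rat received an intravenous dose of temsirolimus (0.3 mg/kg) or its vehicle (TEM_vehicle), and then by mouth sunitinib (5 mg/kg), its vehicle sterile water, sorafenib (25 mg/kg), or its vehicle F68/PG/PEG400, a mixture of Pluronic F68, propylene glycol and polyethylene glycol. Tissue was collected 1, 6 or 24 h after dosing, and the 8 treatments and 3 times gave 24 groups of 4 rats in each tissue. Bulk tissue was measured on 288 Affymetrix rat whole-genome expression arrays, and all levels below are log2 signals after robust multi-array average (RMA) processing, on which 1 unit is a doubling. RMA levels of different probe sets are not on a common scale and the arrays of each tissue had their own distribution, so levels were set against each other only within a gene and a tissue. In bulk samples fewer cells of a type and less RNA per cell cannot be told apart.

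The tissue labels held against marker genes: the mean level of 12 hepatocyte markers was 14.38 to 14.74 in liver, that of 9 measured cardiac muscle markers 13.54 to 14.21 in heart, and that of 7 measured erythroid markers 11.53 to 13.09 in bone marrow. Some arrays stood apart. The heart of rat 6M68 (temsirolimus and sorafenib, 1 h) had a hepatocyte marker level of 14.31 against a median of 6.32 in the other hearts. The bone marrow of rat 4M45 (temsirolimus and F68/PG/PEG400, 6 h) had the lowest erythroid level, 11.53, against 12.71 or more in the others, and the liver of rat 7M78 (TEM_vehicle and sunitinib, 24 h) the lowest hepatocyte level, 14.38, against 14.66 or more. The paper names the liver of rat 4M48 (temsirolimus and F68/PG/PEG400, 24 h) as a potential outlier by array quality measures. It was kept in the model used. Values without the arrays of rats 6M68, 4M45 and 7M78 are given beside most of the passing results that include them. The 4 rats of a group were also split into 2 sets of 2 rats, those with lower and those with higher animal numbers. They are called array sets here, although the sample titles name no batch, and the set was a term in every model.

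Sequence upstream of the genes is shown because the 4 transcripts moved together in liver, as described below. In the 250 bases before the start sites that RefSeq gives on build GRCr8, 3 motifs were searched on both strands, with no overlap between matches. The core of the composite site of ATF4 and C/EBP, TGATGNAA, occurs in 3.27% of 27457 such windows, the E-box CACGTG in 5.79% and the NF-Y box CCAAT in 34.3%. Matches were found for Phgdh (chr2:188624790-188625039, minus strand) and Psat1 (chr1:222645409-222645658, minus strand), and all of them were CCAAT boxes, which are in capitals below. Phgdh held 1 box, at positions -204 to -200 from the start, and Psat1 held 2, at -155 to -151 and -125 to -121. The start sites used for Psat1 and Asns lie within the annotated spans of the genes. The windows of Psph and Asns held none of the 3 motifs, which says only that these letters are not in those windows.
Phgdh: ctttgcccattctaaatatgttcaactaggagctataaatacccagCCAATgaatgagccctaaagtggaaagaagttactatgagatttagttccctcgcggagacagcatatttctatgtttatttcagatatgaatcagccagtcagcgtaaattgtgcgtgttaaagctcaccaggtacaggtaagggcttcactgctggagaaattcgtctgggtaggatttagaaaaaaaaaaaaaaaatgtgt
Psat1: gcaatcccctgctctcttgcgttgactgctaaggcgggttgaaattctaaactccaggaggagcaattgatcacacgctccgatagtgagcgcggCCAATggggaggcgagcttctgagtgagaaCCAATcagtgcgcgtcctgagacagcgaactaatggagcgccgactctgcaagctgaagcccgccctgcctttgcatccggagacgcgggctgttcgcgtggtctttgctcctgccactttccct

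In liver 24 h after temsirolimus, the means of all 4 transcripts lay below those of control livers. With an oral vehicle, control livers were more scattered for Phgdh (SD 0.53 against 0.32 after temsirolimus) and Psat1 (0.63 against 0.40). The scatter was alike for Asns (0.55 against 0.53), and for Psph it was smaller in controls (0.18 against 0.25). With an oral vehicle, temsirolimus changed Phgdh by a log2 value of -1.90 ± 0.42 (SE, 8 rats against 8), Psat1 by -1.84 ± 0.44, Psph by -1.0 ± 0.14 and Asns by -1.43 ± 0.44, which are falls of 3.73-fold, 3.58-fold, 2.00-fold and 2.70-fold. These are the values that chose the genes. In the same comparison 2.3% of all genes passed an adjusted p of 0.05 with a fall, and nothing is read from the 4 genes against that share.

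The rats given sunitinib or sorafenib are a separate set of animals, with 8 that received temsirolimus first and 8 that received TEM_vehicle. There all 4 genes fell with temsirolimus at 24 h in liver by the moderated test of limma across all genes, adjusted by Benjamini-Hochberg, where 1.88% of the 14218 genes fell. Phgdh had been seen in this comparison before the genes were chosen, so its value is no independent support. The change was -1.72 ± 0.42 for Phgdh (adjusted p = 0.0078), -1.57 ± 0.44 for Psat1 (adjusted p = 0.021), -0.71 ± 0.14 for Psph (adjusted p = 0.00062) and -1.35 ± 0.44 for Asns (adjusted p = 0.041). As ratios these were falls of 3.30-fold, 2.96-fold, 1.63-fold and 2.55-fold. All 8 temsirolimus livers lay below the median of their 8 controls for each of the 4 genes. The controls scattered more, with SDs of 1.41 against 0.48 for Phgdh and 1.23 against 0.34 for Psat1. For Psph the SDs were 0.56 against 0.35 and for Asns 1.49 against 0.40. The SE rests on 1 spread per gene shared by all 24 groups of the tissue, so it does not reflect this difference in scatter.

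**Figure D1:**
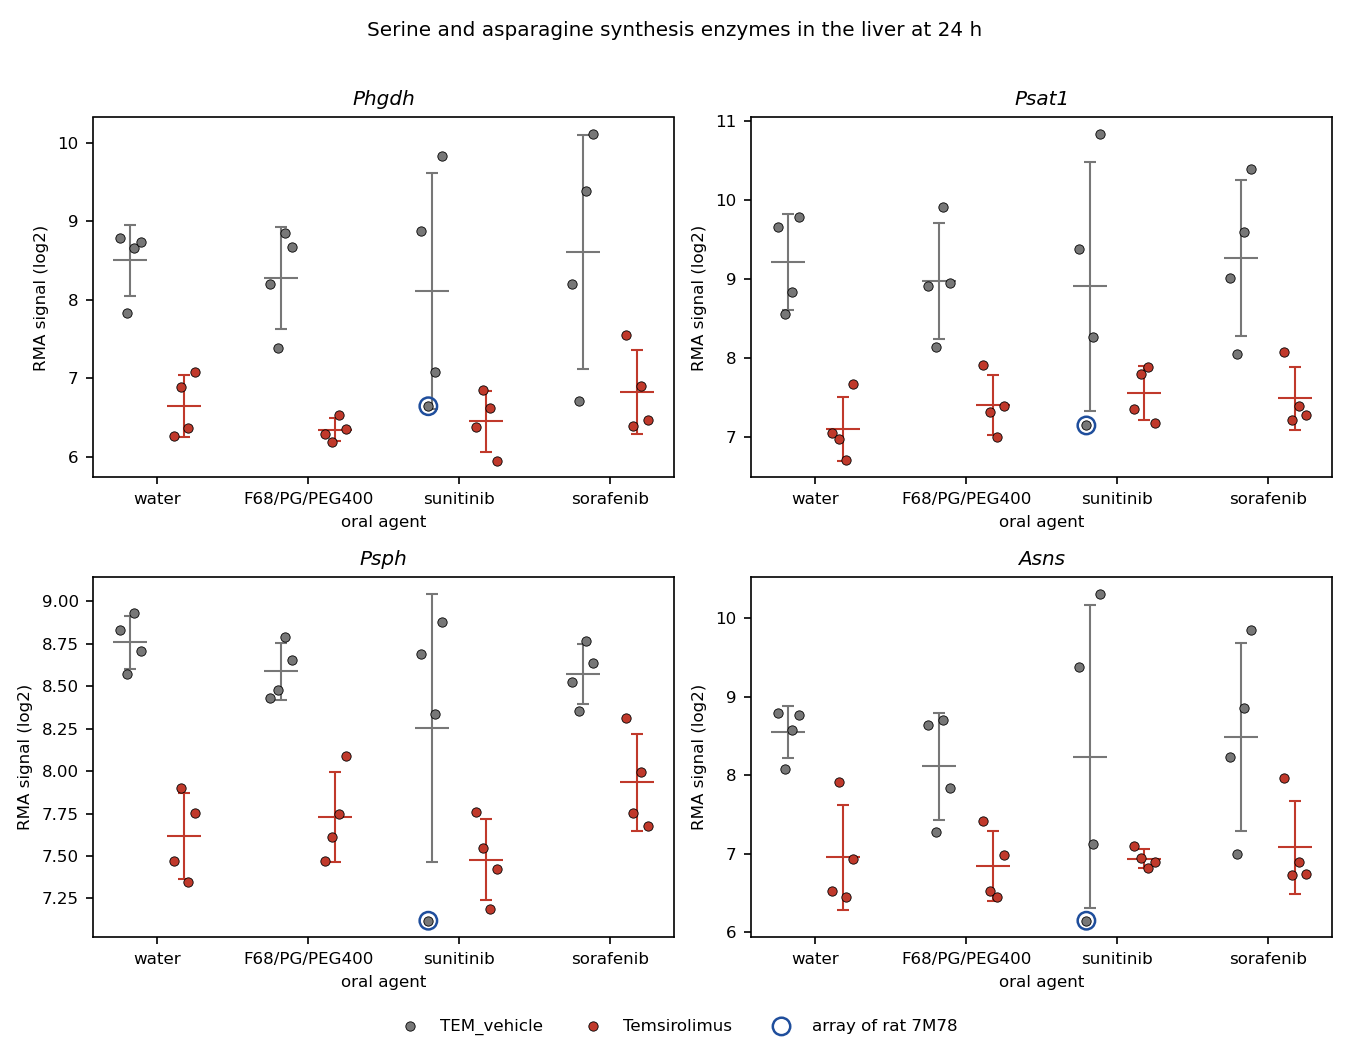
Log2 RMA signal (vertical axis) of Phgdh, Psat1, Psph and Asns in liver at 24 h for the 4 oral agents (horizontal axis). Each point is 1 rat, in red for temsirolimus and in grey for TEM_vehicle, and each crossbar with its whiskers gives a group mean with its SD (n = 4). The array of rat 7M78 is ringed, and in every panel each red mean lies below the grey mean beside it.

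Phgdh, the first enzyme of serine synthesis, read 8.78, 7.83, 8.66 and 8.73 after TEM_vehicle and water, and 6.26, 6.89, 6.36 and 7.07 after temsirolimus and water. With F68/PG/PEG400 it read 8.20, 7.39, 8.85 and 8.67 without temsirolimus and 6.29, 6.19, 6.53 and 6.35 with it. All 8 temsirolimus rats of these groups lay below all 8 controls, whose lowest value was 7.39. With sunitinib Phgdh read 8.88, 6.64, 7.08 and 9.83 in control rats and 6.38, 6.86, 6.62 and 5.94 after temsirolimus. With sorafenib the control rats read 8.21, 6.70, 9.39 and 10.12 and the temsirolimus rats 7.55, 6.39, 6.89 and 6.46. Here the groups overlapped, because 3 control livers, among them that of rat 7M78 at 6.64, were as low as the treated ones, while the other 5 controls lay above every treated rat.

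Psat1, the aminotransferase, read 9.66, 8.55, 8.83 and 9.79 with water and 8.91, 8.13, 9.91 and 8.94 with F68/PG/PEG400 in control livers at 24 h. After temsirolimus the same vehicles gave 7.04, 6.97, 6.71 and 7.66, and 7.91, 7.31, 6.99 and 7.39, with no overlap. In control rats given sunitinib it read 9.38, 7.14, 8.27 and 10.84, and in those given sorafenib 9.02, 8.04, 9.60 and 10.39. After temsirolimus the sunitinib rats read 7.35, 7.79, 7.88 and 7.17 and the sorafenib rats 8.07, 7.21, 7.39 and 7.28. The highest treated value, 8.07, was exceeded by 6 of the 8 controls.

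Psph, the phosphatase that ends the chain, had the smallest change and also the smallest scatter. Control rats read 8.83, 8.57, 8.93 and 8.71 with water and 8.43, 8.48, 8.79 and 8.66 with F68/PG/PEG400. After temsirolimus they read 7.47, 7.90, 7.35 and 7.75, and 7.47, 7.61, 7.75 and 8.09. The highest treated rat, 8.09, was again below the lowest control, 8.43. With sunitinib the controls read 8.69, 7.12, 8.34 and 8.88 and the temsirolimus rats 7.76, 7.55, 7.18 and 7.42. With sorafenib the controls read 8.53, 8.35, 8.77 and 8.64 and the temsirolimus rats 8.31, 7.75, 7.99 and 7.68. Only the control of rat 7M78, at 7.12, reached into the range of the treated rats, and the other 7 controls lay above all 8.

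Asns, the asparagine enzyme, overlapped in both settings. Control rats read 8.79, 8.08, 8.57 and 8.77 with water and 8.64, 7.28, 8.70 and 7.84 with F68/PG/PEG400, and after temsirolimus 6.53, 7.91, 6.45 and 6.94, and 7.41, 6.53, 6.45 and 6.99. Of these 8 treated rats, 6 were below the lowest control. With sunitinib the controls read 9.37, 6.15, 7.12 and 10.31 and the temsirolimus rats 7.10, 6.95, 6.82 and 6.90. With sorafenib the controls read 8.24, 6.99, 8.86 and 9.85 and the temsirolimus rats 7.97, 6.73, 6.90 and 6.75. Rat 7M78, at 6.15, was the lowest of all livers for this gene, and 5 of the 8 controls lay above every treated rat.

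Without the array of rat 7M78 the changes in rats given an oral drug were larger, -1.93 ± 0.44 for Phgdh (adjusted p = 0.0039), -1.84 ± 0.45 for Psat1 (adjusted p = 0.0088), -0.89 ± 0.12 for Psph (adjusted p = 1.7e-07) and -1.69 ± 0.44 for Asns (adjusted p = 0.013). The calls changed when single rats of each group were left out. Without replicate 2, numbered in order of accession, none of the 4 passed, with changes from -1.12 to -0.52 and adjusted p from 0.056 to 0.3. Without replicate 3 only Psph did. Within array set 1, which holds 2 rats of each group and rat 7M78, the changes were -0.81 for Phgdh, -0.79 for Psat1, -0.33 for Psph and -0.50 for Asns and none passed, and within array set 2 they were -2.63, -2.34, -1.09 and -2.20 and all passed, with adjusted p from 0.00034 to 0.017. A test of the difference between the array sets was not run.

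The changes are also given for each oral drug, and the difference between the 2 drugs was not tested. With sunitinib as the oral drug, temsirolimus changed Phgdh by -1.66 ± 0.60, Psat1 by -1.36 ± 0.63, Psph by -0.78 ± 0.19 and Asns by -1.30 ± 0.62, of which Psph passed (adjusted p = 0.012). Without the array of rat 7M78, an alternative added after seeing the data, these were -2.08 ± 0.64, -1.90 ± 0.66, -1.15 ± 0.18 and -1.99 ± 0.64, and again only Psph passed (adjusted p = 1.1e-05). With sorafenib the changes were -1.78 ± 0.60, -1.78 ± 0.63, -0.64 ± 0.19 and -1.40 ± 0.62, with adjusted p from 0.13 to 0.33. Whether the effect of temsirolimus depended on the oral drug was tested in limma. In liver none of the 8 tests at 1 and 6 h passed or had an unadjusted p under 0.05, and the test at 24 h holds the values that chose the genes and is not used. Of 12 tests in heart and 12 in bone marrow none passed (0% of all genes), with 1 and 0 at an unadjusted p under 0.05.

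In the hours before, the liver showed no fall that passed. At 1 h temsirolimus changed the 4 genes by -0.27 to -0.12 with an oral vehicle and by -0.54 to -0.26 with an oral drug, and at 6 h by -0.60 to -0.34 and by -0.17 to 0.28. None of these 16 tests passed, in comparisons where between 0% and 0.00703% of all genes did. The intervals of Phgdh were wide: at 6 h the 95% interval ran from -1.24 to 0.45 with an oral vehicle and from -1.02 to 0.67 with an oral drug. For Psph at 6 h with an oral vehicle the change was -0.34 ± 0.14. Its interval ran from -0.61 to -0.07, and its unadjusted p was 0.015 in limma, the only such p under 0.05 among the 16. Over all oral agents, all 16 temsirolimus livers lay below the control median of Psph at 6 h. Of the 16 controls, 9 lay above every treated liver. Whether the change itself differed between 1, 6 and 24 h was tested in the rats given an oral drug, and none of the 4 genes passed (adjusted p from 0.18 to 0.24, against 0.359% of all genes). From 6 to 24 h the change moved by -1.55 ± 0.60 for Phgdh, -1.74 ± 0.63 for Psat1, -0.55 ± 0.19 for Psph and -1.63 ± 0.62 for Asns. A larger change at 24 h than at 6 h is therefore seen in size but was not established for a single gene. Without the array of rat 7M78, Psph passed and the other 3 genes did not.

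**Figure D2:**
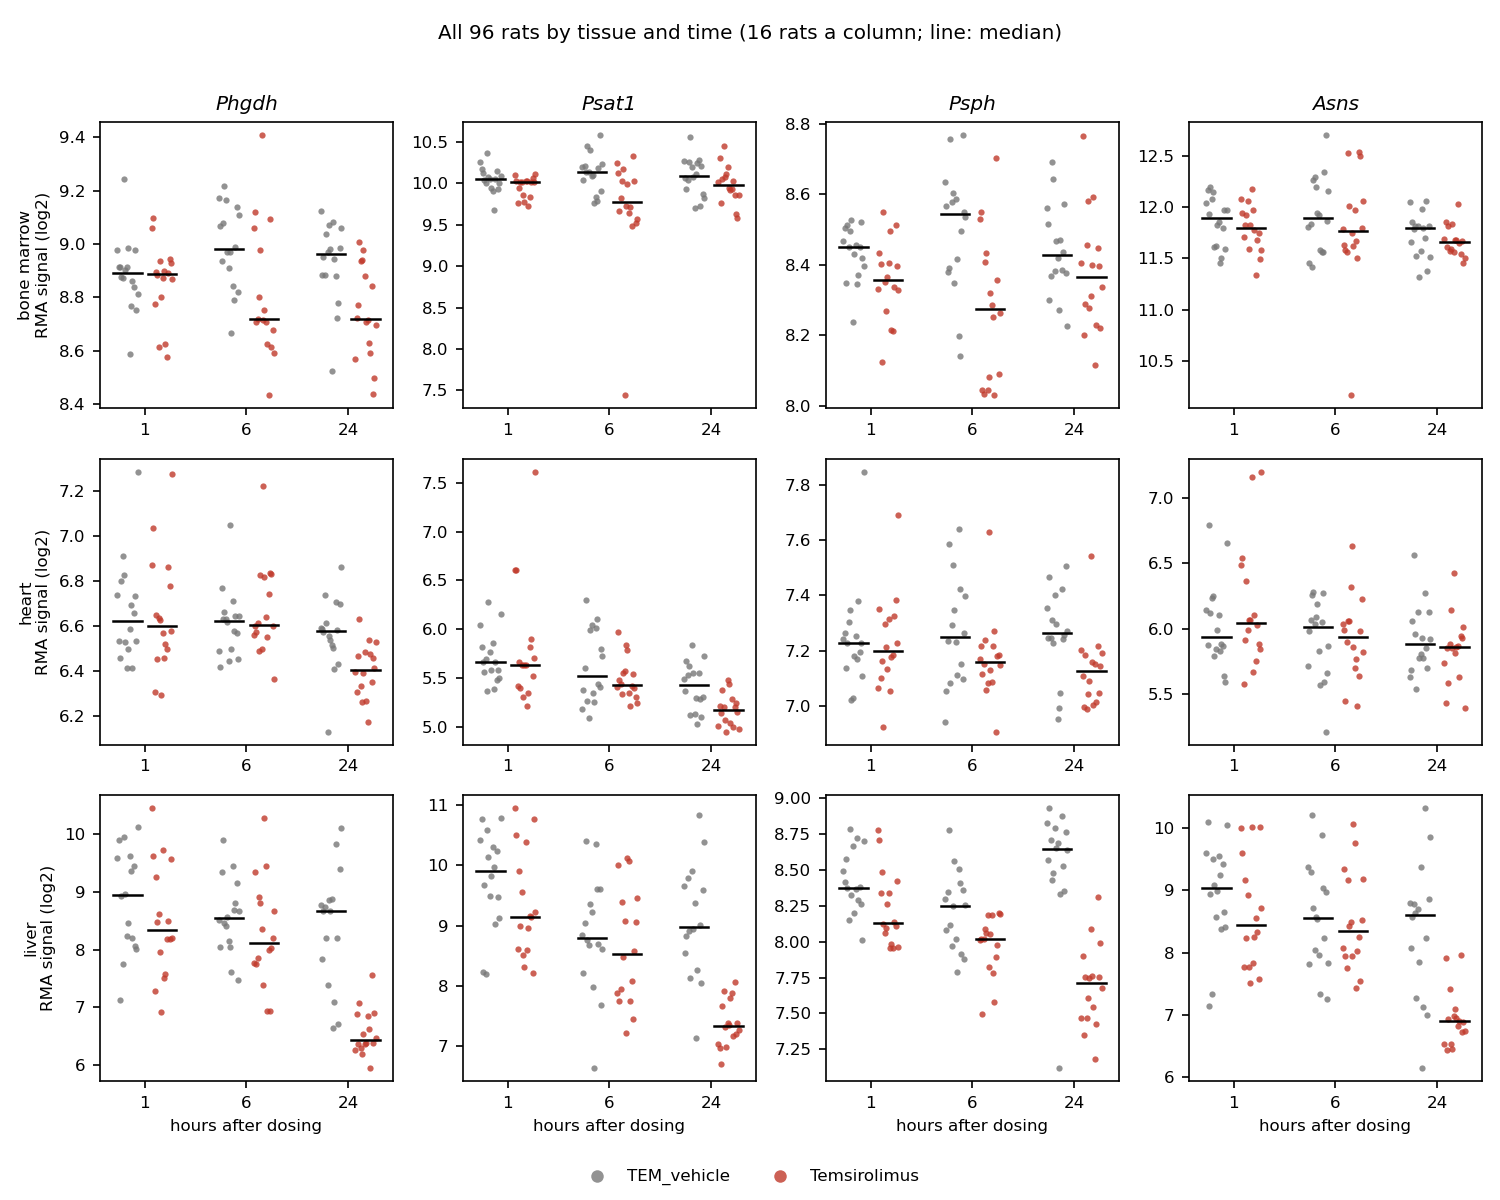
Log2 RMA signal (vertical axis, scaled to each panel) of the 4 genes in bone marrow, heart and liver at 1, 6 and 24 h (horizontal axis). Points are the 16 rats with temsirolimus (red) or with TEM_vehicle (grey), over all oral agents, and lines their medians; in liver at 24 h the Phgdh median was 6.43 with temsirolimus and 8.67 without.

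The order of the 24 liver groups put the 4 temsirolimus groups of 24 h lowest for Phgdh, Psat1 and Asns, and 3 of them among the lowest 4 for Psph. For Phgdh the lowest mean was 6.34 ± 0.15 (SD, n = 4), with temsirolimus and F68/PG/PEG400 at 24 h, and the highest 9.16 ± 1.34, with temsirolimus and water at 1 h. There was a step from 6.82 in the fourth lowest group to 7.96 in the fifth. For Asns the corresponding means were 7.09 and 8.07, for Psat1 7.55 and 8.40, and for Psph 7.89 and 7.90. No 2 neighbours in these orders were free of overlap between their rats, for any of the 4 genes in any tissue. This order holds the values that chose the genes and is a description.

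Apart from treatment, the 3 genes Phgdh, Psat1 and Asns were among the most variable transcripts from liver to liver. Their residual SD, the scatter of rats around the means of their group and array set, was 0.874, 0.913 and 0.899, against a median of 0.171 over all genes, and 99.7% of genes scattered less than each. Psph had 0.278, above 90.2% of genes. The 16 control livers at 1 h read 7.13 to 10.13 for Phgdh (median 8.95), 8.20 to 10.79 for Psat1 (median 9.90) and 7.14 to 10.10 for Asns (median 9.03). These 16 livers pool the 4 oral agents. Within a single group, the 4 livers of temsirolimus and water at 1 h, the SD of Phgdh was 1.34. At 24 h the SD of Phgdh was 1.03 over the 16 control livers and 0.40 over the 16 temsirolimus livers, that of Psat1 0.95 and 0.39, that of Asns 1.09 and 0.46 and that of Psph 0.42 and 0.29. The 16 controls include rat 7M78, and with an oral vehicle the SD of Psph was 0.18 in controls and 0.25 after temsirolimus. In heart the residual SD of the 4 genes was 0.156 to 0.348 and in bone marrow 0.106 to 0.292. Phgdh scattered more than 75% of genes in heart and 38.7% in bone marrow, Psat1 more than 95.1% and 92.5%, Asns more than 94.4% and 87.7%, and Psph more than 58.3% and 7.05%.

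The scatter was shared. Over the residuals of 96 livers, Phgdh and Psat1 correlated with a Pearson r of 0.91 and a Spearman rho of 0.91, Phgdh and Asns with 0.91 and 0.91, and Psat1 and Asns with 0.92 and 0.91. Psph followed less closely, with r and rho of 0.64 and 0.65 against Phgdh, 0.66 and 0.64 against Psat1, and 0.68 and 0.65 against Asns. Each had a two-sided permutation p of 1e-05, the smallest that 100000 permutations of rats within groups can give, and 3e-05 after adjustment over the 18 relations tested in 3 tissues. Without the 2 livers farthest from the median of the first gene r was 0.63 to 0.91, within array set 1 0.68 to 0.91, and within array set 2 0.58 to 0.94. Within the 16 temsirolimus livers of 24 h r was 0.38 to 0.82, with the lowest for Psat1 and Psph, and over the other 80 livers it was 0.65 to 0.93. These are values of 1 array each, so the genes share the RNA sample and its normalization.

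**Figure D3:**
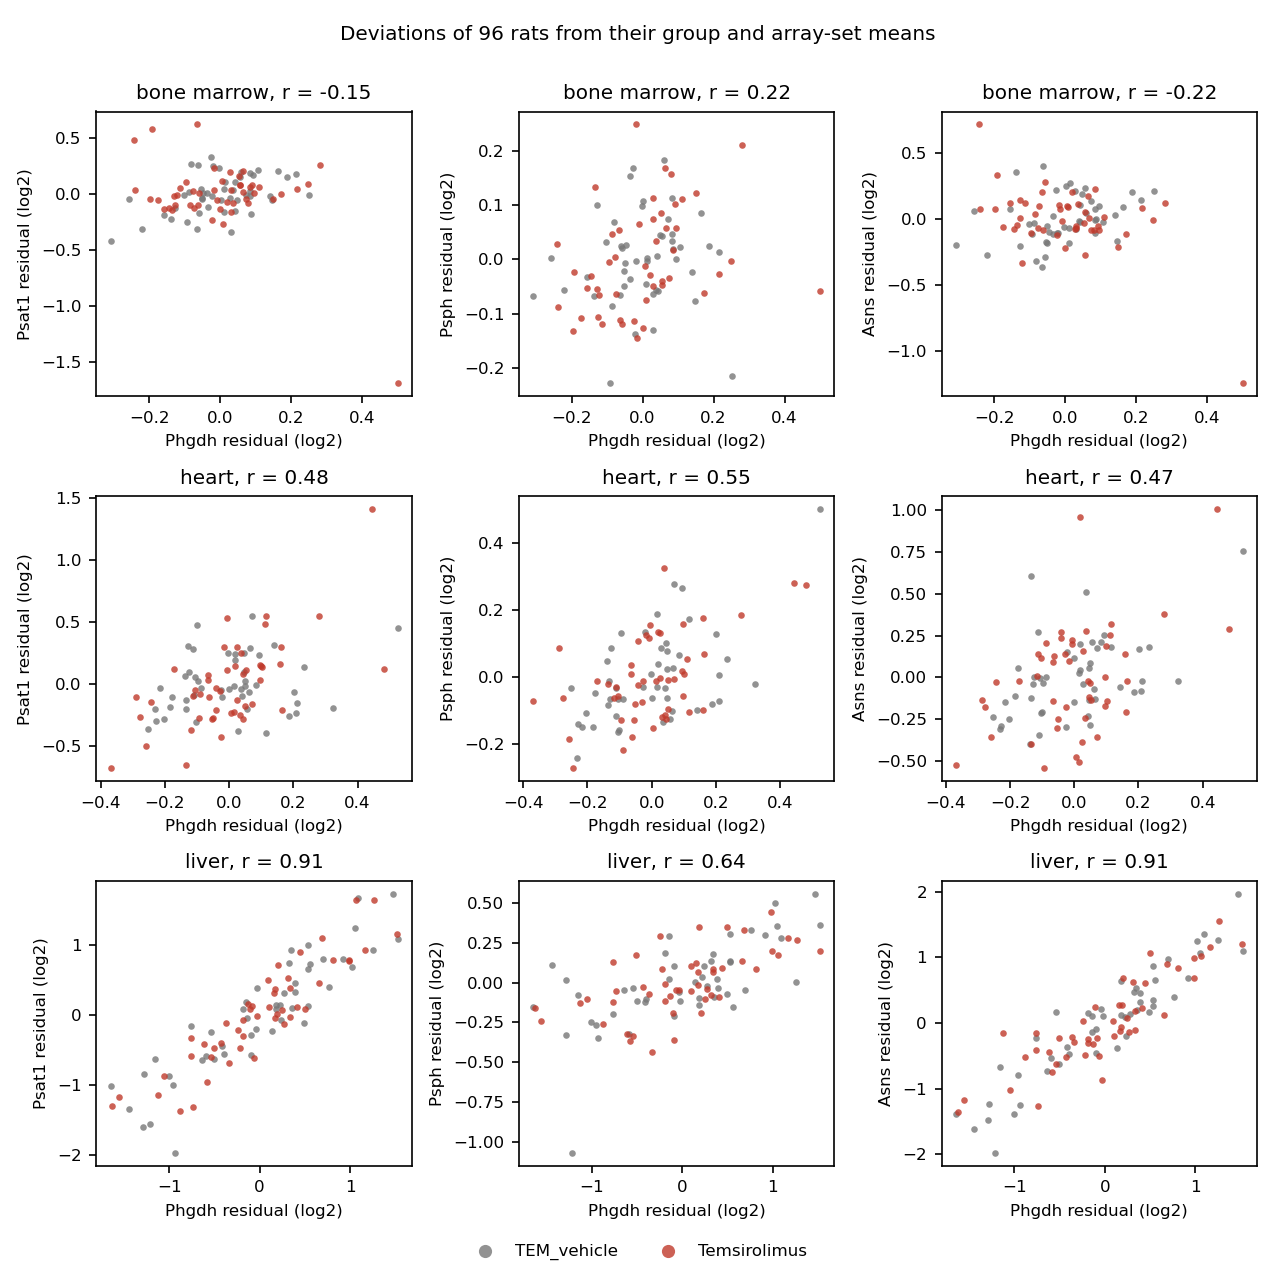
Deviation of each of 96 rats from the mean of its group and array set (log2), with Phgdh on the horizontal axis and Psat1, Psph or Asns on the vertical axis, in bone marrow, heart and liver; red with temsirolimus and grey with TEM_vehicle. The liver points for Psat1 and Asns lie close to a line (r = 0.91), while 1 bone marrow array, that of rat 4M45, lies far below the rest.

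In heart the relations were weaker and all 6 passed, with r from 0.47 to 0.55, rho from 0.37 to 0.46 and adjusted p of 0.00075 or less for r. The heart of rat 6M68, with the highest hepatocyte signal, was high for all 4 genes, and without it and the heart of rat 4M46 r was 0.39 to 0.48. Another heart, with a hepatocyte marker level of 12.45, was kept in these values. In bone marrow the pairs differed. Psat1 and Asns had r = 0.67 and rho = 0.35 (adjusted permutation p = 0.0065 and 0.0067), and r was 0.43 without the array of rat 4M45. Psat1 and Psph had r = 0.32 and rho = 0.39 (adjusted permutation p = 0.00027 and 0.00072). The other 4 pairs had r from -0.22 to 0.22 and none passed for r, while by rho Phgdh passed with Psat1 (0.26, adjusted permutation p = 0.036) and with Psph (0.31, adjusted permutation p = 0.011). For Phgdh and Psat1 the sign of r rested on 1 array, being -0.15 with and 0.20 without rat 4M45. The tissues were not tested against each other for the strength of these relations.

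Other genes rose and fell with the 4 in single livers. With the mean of the 4 standardized genes over the 96 residuals, the highest correlation was that of Slc3a2, the heavy chain of several amino acid exchangers (r = 0.88). It was followed by Plekha1 (0.84), Cavin3 (0.82) and Nupr1, a stress-response gene (0.81). Next came Aldh18a1, which starts proline synthesis from glutamate (0.79), Gars1, the glycyl tRNA synthetase (0.74), Fkbp11 (0.73) and Eif2s2, a subunit of the initiation factor eIF2 (0.73). Reep5 and Fgf21, a liver hormone released under nutrient stress, completed the 10 highest, both with 0.72. In heart the 5 highest were Sec61b, Tmem183a, Tmem97, Alg5 and Prdx4 (r = 0.78 to 0.80), and in bone marrow Strap, Dnaja2, Psmg2, Mars1 and Ebna1bp2 (r = 0.74 to 0.77). The 3 lists had no gene in common. They are descriptions, and each value is from 1 array per rat.

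Over the 24 liver group means, where treatment counts, the neighbours were partly others. Asns was closer to Phgdh (r = 0.97) than any gene outside the set, and Psat1 reached 0.93 with both. Of genes outside the set, Ssr2, part of the translocon of the endoplasmic reticulum, was nearest to Phgdh (0.94), Psat1 (0.93) and Asns (0.93). Nme1, a nucleoside diphosphate kinase, had 0.92 with Phgdh and with Psat1. The other nearest genes were Pdia6 (0.92), Hsd17b13 (0.91) and Nme2 (0.91) for Phgdh, Tmx2 (0.93), Chid1 (0.90) and Hsp90b1 (0.89) for Psat1, and Nucb2 (0.92), Ppib (0.92), Fkbp11 (0.92) and Chid1 (0.91) for Asns. Psph stood nearer to Tmem97 (0.92), Slc35b4 (0.90) and Nars1, the asparaginyl tRNA synthetase (0.88), than to Psat1 (0.81), Phgdh (0.77) or Asns (0.71). These means include the groups that chose the 4 genes.

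The genes that use serine and glycine were read beside the enzymes that make them. Of 16 measured genes of serine and glycine use, 1 fell and 1 rose with temsirolimus in liver at 24 h in rats given an oral drug, and the median change was 0.09 against 0.03 over all genes. Cbs, which joins serine to homocysteine, fell by 0.32 ± 0.09 (adjusted p = 0.026), and Dmgdh, which breaks down dimethylglycine, rose by 0.35 ± 0.11 (adjusted p = 0.028). With an oral vehicle, the comparison that chose the members, the largest falls of the list were those of Gldc, of the glycine cleavage system, at -0.52 ± 0.12, Cbs at -0.50 ± 0.09 and Sdsl, a serine dehydratase relative, at -0.26 ± 0.07. Of 15 genes of the folate and methionine cycle 3 rose, Ftcd by 0.31 ± 0.09, Ahcy by 0.25 ± 0.08 and Bhmt by 0.35 ± 0.11 (adjusted p from 0.03 to 0.045), and none fell. Without the array of rat 7M78 these 3 and Dmgdh no longer passed (adjusted p from 0.23 to 0.3), while Cbs fell by 0.42 ± 0.09, Shmt1, which turns serine into glycine, by 0.24 ± 0.05 (adjusted p = 0.0039), and Agxt, an aminotransferase that removes glyoxylate, by 0.38 ± 0.09 (adjusted p = 0.0063). In the folate list Aldh1l2, a mitochondrial formyltetrahydrofolate dehydrogenase, then fell by 0.40 ± 0.12 (adjusted p = 0.036), so that 0 rose and 1 fell, and in the list of serine and glycine use 0 rose and 3 fell. In the same comparison 5.98% of genes rose and 1.88% fell with that array, 850 and 267 genes, and 185 rose and 307 fell without it.

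Of 16 measured genes of the ATF4 response 5 fell and none rose in the same comparison, with a median of -0.16 against 0.03 over all genes. The shares of all genes that rose and fell there are given above. Nupr1 fell by 1.69 ± 0.29 (adjusted p = 0.00021), Ddit4, an inhibitor of mTORC1, by 1.18 ± 0.25 (adjusted p = 0.0026), Atf5 by 0.63 ± 0.16 (adjusted p = 0.0096), Eif4ebp1, the translation repressor 4E-BP1, by 0.34 ± 0.08 (adjusted p = 0.0067) and Vldlr, a lipoprotein receptor, by 0.36 ± 0.09 (adjusted p = 0.01). Without the array of rat 7M78 Vldlr no longer passed (adjusted p = 0.097) and Ddit3 did, so 5 again fell. Nupr1 then had -1.98 ± 0.28, Ddit4 -1.43 ± 0.25, Atf5 -0.79 ± 0.15 and Eif4ebp1 -0.42 ± 0.08. With all arrays the other 11 did not pass. Their changes went both ways, from -0.69 ± 0.37 for Fgf21 to 0.39 ± 0.20 for Cebpb, with Atf4 itself at 0.19 ± 0.12. In rats given an oral vehicle, the comparison that chose the members, Nupr1 had -1.78 ± 0.29, Ddit4 -1.03 ± 0.25, Atf5 -0.35 ± 0.16 and Eif4ebp1 -0.33 ± 0.08.

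Of the regulators of the 4 genes, a list of 11 with the eIF2 kinases and mTOR among them, only Myc passed, with a rise of 1.21 ± 0.27 (adjusted p = 0.0036), and 1.16 ± 0.28 without the array of rat 7M78. Of 16 measured genes of other amino acid synthesis, Ass1, which makes argininosuccinate, fell by 0.28 ± 0.09 and Glud1, glutamate dehydrogenase, rose by 0.19 ± 0.06 (adjusted p = 0.044 and 0.038). Of 16 amino acid transporters, Slc7a11, the cystine carrier, fell by 0.27 ± 0.08 and Slc38a4 rose by 0.27 ± 0.08 (adjusted p = 0.028 and 0.02). Neither transporter passed without the array of rat 7M78, nor did Glud1. Ass1 then had -0.35 ± 0.09 (adjusted p = 0.0095 in limma), and Pycr3 of the same list passed at -0.31 ± 0.08 (adjusted p = 0.011). Nars1, which loads asparagine onto its tRNA, fell by 0.31 ± 0.10 (adjusted p = 0.04) and was the only 1 of 5 seryl, glycyl and asparaginyl tRNA synthetases to pass. Without the array of rat 7M78 Nars1 had -0.45 ± 0.09 (adjusted p = 0.00038). None of 10 measured genes of the fed and fasted liver passed.

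**Figure D4:**
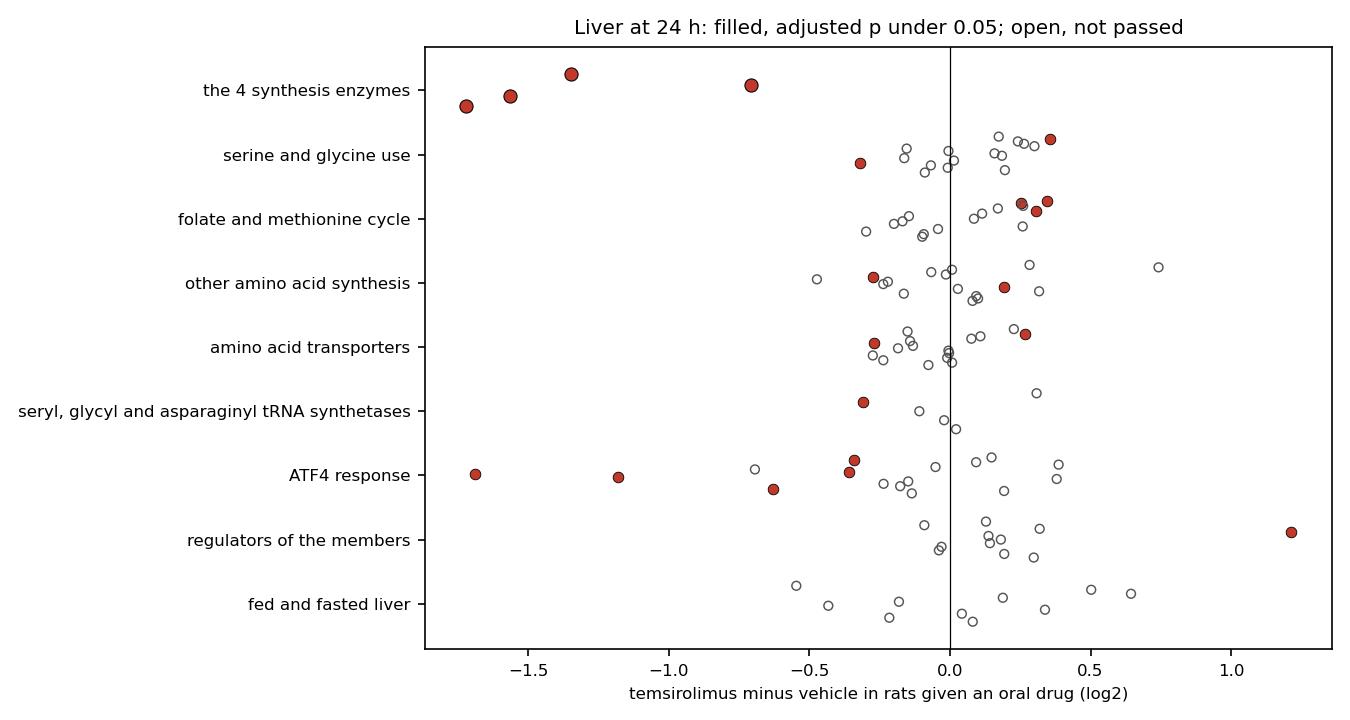
Change with temsirolimus in liver at 24 h in rats given an oral drug (horizontal axis, log2, 8 rats against 8) for the 4 synthesis enzymes and the measured genes of 8 pathway lists (vertical axis). Each point is a gene, filled where the adjusted p was under 0.05 and open where it was not; the points farthest to the left are Phgdh at -1.72 and, in the ATF4 response, Nupr1 at -1.69.

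Markers of other cell types were read beside these liver results. The hepatocyte markers had mean levels of 14.66 to 14.71 over the 8 temsirolimus livers given an oral drug and of 14.38 to 14.73 over their controls, and none of the 12 passed. Among markers of non-parenchymal and blood cells, 2 of 6 endothelial genes, Tek and Kdr, and 1 of 5 adipocyte genes, Cidec, rose, and none did without the array of rat 7M78. Of 12 proliferation genes 3 fell, with a median of -0.71, and 1 did without that array, Cdk1 by 1.22 ± 0.35 (adjusted p = 0.034). Their part in the values of the 4 enzymes was not tested.

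Over all treatments and times the genes held a narrower range in heart and bone marrow than in liver. The lowest, median and highest of 96 levels of Phgdh were 6.13, 6.57 and 7.29 in heart, 8.43, 8.88 and 9.41 in bone marrow and 5.94, 8.21 and 10.46 in liver. Those of Psat1 were 4.95, 5.48 and 7.62 in heart, 7.44, 10.03 and 10.58 in bone marrow and 6.64, 8.92 and 10.95 in liver. The highest heart value of Psat1 and the lowest bone marrow value are those of rats 6M68 and 4M45. Those of Psph were 6.91, 7.20 and 7.85 in heart, 8.03, 8.40 and 8.77 in bone marrow and 7.12, 8.19 and 8.93 in liver. Those of Asns were 5.21, 5.92 and 7.21 in heart, 10.17, 11.80 and 12.70 in bone marrow and 6.15, 8.35 and 10.31 in liver. The highest heart value of Asns was that of rat 6M68 and the lowest bone marrow value that of rat 4M45. In heart the 4 temsirolimus groups of 24 h were again the 4 lowest of 24 for Phgdh and Psat1, and 2 of them were among the lowest 4 for Psph and for Asns, with overlap between all neighbours.

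Heart and bone marrow gave no comparable change at 24 h. The mean heart levels of Psat1 and Asns were 5.54 and 5.97, below the log2 signal of 6 used as a filter in an alternative. Whether low signal limited the falls that could be seen in heart was not tested. In heart temsirolimus changed Phgdh by -0.13 ± 0.09 with an oral vehicle and -0.19 ± 0.09 with an oral drug, Psat1 by -0.34 ± 0.17 and -0.13 ± 0.17, Psph by -0.18 ± 0.08 and -0.10 ± 0.08 and Asns by -0.05 ± 0.16 and -0.12 ± 0.16. In bone marrow the values were -0.14 ± 0.08 and -0.23 ± 0.08 for Phgdh, -0.05 ± 0.14 and -0.15 ± 0.14 for Psat1, -0.08 ± 0.05 and -0.05 ± 0.05 for Psph, and -0.04 ± 0.12 and -0.07 ± 0.12 for Asns. None passed at any time, 0 of 24 tests in each tissue, where between 0% and 0.724% of all genes did, and 3 of 24 in heart and 6 of 24 in bone marrow had an unadjusted p under 0.05. The intervals bound these changes more tightly than in liver: for Phgdh in rats given an oral drug, the 95% interval was -0.37 to -0.01 in heart and -0.38 to -0.08 in bone marrow. At 24 h Asns ranged from 11.32 to 12.05 over 16 control marrows and from 11.46 to 12.03 over 16 temsirolimus marrows. More than the middle share of the temsirolimus rats still lay below the control median over all oral agents. Of 16 hearts these were 15 for Phgdh, 14 for Psat1, 15 for Psph and 10 for Asns. In the 16 marrows they were 14, 12, 11 and 12. These counts were not tested.

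Because every rat gave 3 tissues, the change in liver could be set against that in the other tissues of the same animals. In rats given an oral drug, the change at 24 h was lower in liver than in heart by 1.53 ± 0.41 for Phgdh (log2 difference -1.53, adjusted p = 0.047, on liver values that were known for Phgdh when the genes were chosen) and by 0.61 ± 0.13 for Psph (-0.61, adjusted p = 0.019), where 0.127% of genes differed in that direction. The differences of -1.43 ± 0.40 for Psat1 and -1.23 ± 0.43 for Asns did not pass, and the heart levels of both genes were low, as given above. Against bone marrow the differences were -1.49 ± 0.42 for Phgdh (adjusted p = 0.024), -0.65 ± 0.14 for Psph (adjusted p = 0.0027), -1.41 ± 0.46 for Psat1 (adjusted p = 0.051) and -1.27 ± 0.44 for Asns (adjusted p = 0.068), where 0.985% of genes differed in that direction. Heart and bone marrow differed by -0.04 to 0.04, and none passed (0.0985% of genes). Without rats 7M78, 6M68 and 4M46 the differences against heart were larger, at -1.75 for Phgdh and -0.79 for Psph, and Psat1 (-1.72, adjusted p = 0.017) passed too. Against bone marrow only rat 7M78 was left out. There the differences were -1.74 and -0.80, also larger, and Asns (-1.66, adjusted p = 0.04) passed too. Without replicate 2 the 4 differences that passed were -0.91, -0.42, -0.81 and -0.44, and without replicate 3 they were -1.25, -0.48, -1.23 and -0.51, and none passed in either case.

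**Figure D5:**
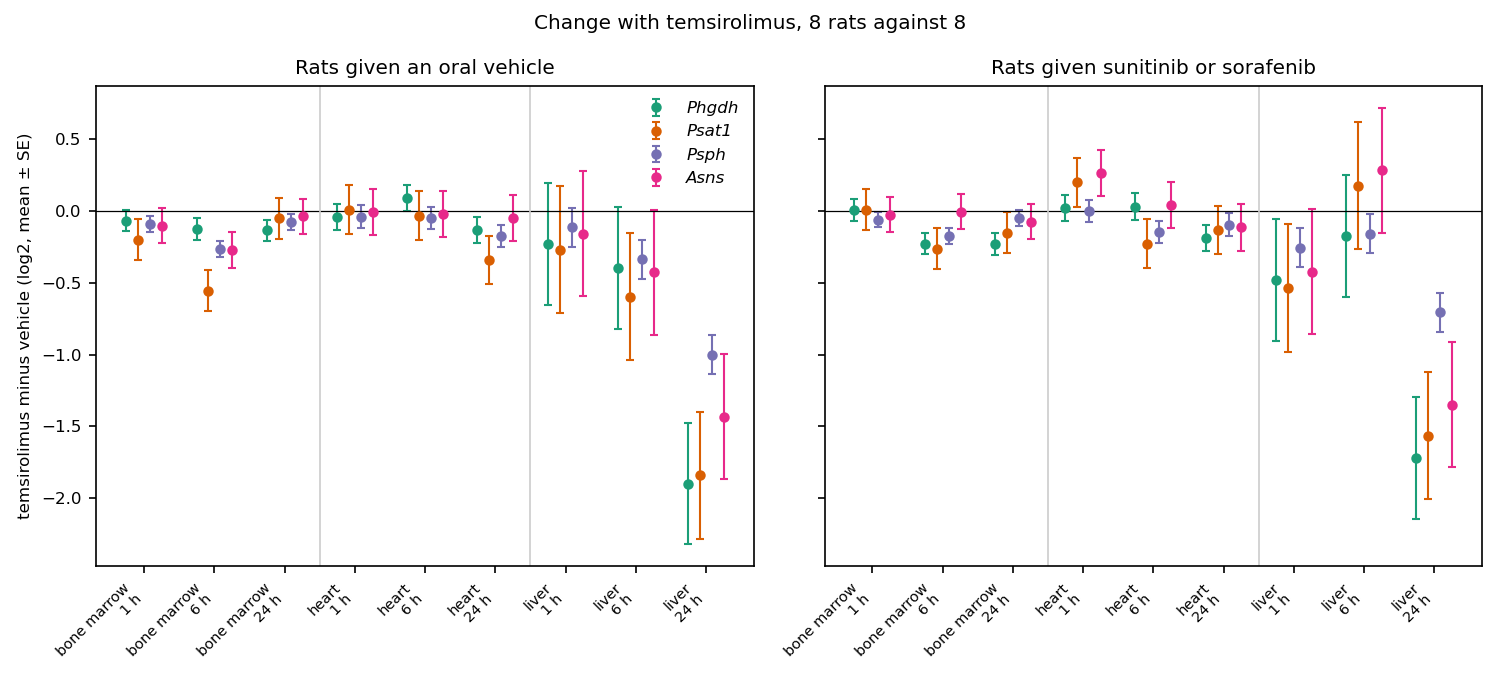
Change with temsirolimus (vertical axis, log2 difference from TEM_vehicle, mean ± SE) of the 4 genes in bone marrow, heart and liver at 1, 6 and 24 h (horizontal axis), in rats given an oral vehicle (left) and in rats given sunitinib or sorafenib (right), 8 rats against 8. The largest falls are those in liver at 24 h, -1.90 to -1.0 on the left and -1.72 to -0.71 on the right.

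In bone marrow at 6 h one group held a marrow that stood apart. After temsirolimus and F68/PG/PEG400 Psat1 read 10.02, 10.17, 7.44 and 9.72, Asns 12.53, 12.01, 10.17 and 11.75, and Psph 8.41, 8.43, 8.05 and 8.08. Controls with the same oral vehicle read 10.45, 10.14, 10.40 and 10.09 for Psat1, 12.26, 12.29, 12.19 and 11.94 for Asns and 8.76, 8.58, 8.60 and 8.35 for Psph. The lowest temsirolimus value of each is that of rat 4M45, and it is the lowest of the 96 marrows for Psat1 and for Asns. Among the marrows this array was lowest for the erythroid, granulocyte, macrophage, lymphocyte and proliferation lists. It was highest for hepatocyte markers (6.03 against at most 5.49) and cardiac muscle markers (5.91 against at most 5.38). The paper names it as a potential outlier by array quality measures. With that oral vehicle alone, temsirolimus changed Psat1 by -0.93 ± 0.20, Asns by -0.56 ± 0.17 and Psph by -0.33 ± 0.08 (adjusted p = 0.013, 0.026 and 0.019 in limma), in a comparison where 17.9% of all genes passed, 11.9% with a fall and 5.96% with a rise. Without the array of rat 4M45, an alternative added after seeing the data, they were -0.34 ± 0.13, -0.12 ± 0.14 and -0.31 ± 0.08, and none passed (adjusted p from 0.5 to 0.96). Averaged over both oral vehicles the changes were -0.56 ± 0.14, -0.27 ± 0.12 and -0.27 ± 0.06 and did not pass, and without that array they were -0.26, -0.06 and -0.26.

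The oral drugs on their own gave no passing change. For sunitinib against water and for sorafenib against F68/PG/PEG400, 0 of 36 tests passed each, with 5 and 1 at an unadjusted p under 0.05, in comparisons where up to 9.99% of genes passed. In liver the 95% intervals were wide and reached from -1.85 to 1.32 for sunitinib and from -1.62 to 1.74 for sorafenib over the genes and times. The lowest adjusted p for sunitinib, 0.061, was that of Psph in liver at 24 h, at -0.51 ± 0.19, and without the array of rat 7M78 the change was -0.13 ± 0.18. The 2 oral vehicles did not differ for these genes either, with 0 of 36 tests passing and 1 at an unadjusted p under 0.05. After temsirolimus, sunitinib gave no passing change in 36 tests (4 at an unadjusted p under 0.05) and sorafenib changed Asns in bone marrow at 6 h, with a rise of 0.61 ± 0.17 (adjusted p = 0.02), where 14% of genes rose. The reference group there holds rat 4M45, and without that array the rise was 0.17 and did not pass.

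Time after dosing left the 4 genes without a passing change in rats that received vehicles only. None of the 12 tests of 1, 6 and 24 h passed (1 at an unadjusted p under 0.05, lowest adjusted p 0.22), while 4.89% of genes passed in liver, 2.41% in heart and 0.281% in bone marrow. In liver Psph stood at 8.47 ± 0.20 at 1 h, 8.30 ± 0.27 at 6 h and 8.67 ± 0.18 at 24 h (SD, n = 8), and Phgdh at 8.81 ± 1.03, 8.67 ± 0.63 and 8.39 ± 0.53. The means of the 3 times differed by less than the spread of the rats for Phgdh. For Psph the step from 6 to 24 h was 0.37 ± 0.14 (adjusted p = 0.11).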

How the data were processed

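The authors hybridized RNA of 288 tissue samples to Affymetrix rat whole-genome expression arrays, 1 array a sample, and deposited log2 signals made by RMA, a background correction, quantile normalization and median polish over the probes of a probe set. The version of RMA is not given in the sources used here. Of 31099 probe sets, 20832 carried a single gene symbol, 436 several, and 9831 were not listed with a symbol, and 20764 were matched to a RefSeq gene. Each gene was represented by the probe set with the highest mean in a tissue, which left 14218 genes.

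Groups, doses and times were taken from the sample titles. For each tissue the 24 group means and 3 terms for array set, 1 a time point, were fitted in limma 3.58.1 (R 4.3.3) with eBayes. P-values were two-sided, adjusted by Benjamini-Hochberg over all genes, and 0.05 was the threshold. Tissues were compared within rats, with the rat as the block, since the 3 tissues come from the same animals. Errors are SE of the fit unless SD is stated, and each rat is 1 replicate. The methods state that 2 rats of a group were dosed on each of 2 days, without saying which, so array set and dosing day cannot be told apart. The fit was tested on simulated data with the same scatter in every group and no outlying array. Unequal scatter between groups, as in the livers of 24 h, was therefore not covered. Array data carry no read depth, and the number of arrays limits the precision.

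Relations between the 4 genes used residuals from group and array set means, with permutation of rats within groups (scipy 1.17.1). Named list genes are the 4 with the smallest adjusted p of each list. Vldlr, Shmt1, Agxt, Ddit3, Aldh1l2, Gldc, Sdsl, Pycr3, Atf4, Fgf21 and Cebpb were named after their values were seen. The genes and lists were chosen with earlier results of these data known. Alternatives covered filtering at a log2 signal of 6, renewed quantile normalization, models without array set, the mean of all probe sets, single array sets, and leaving out replicates or arrays that stand apart. Replicate numbers follow accession order and pair nothing across groups.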

Additional observations from a re-analysis of the deposited data

Results flagged for a closer look

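The differences between tissues that passed in limma were those of the temsirolimus change at 24 h in rats given an oral drug: liver against heart for Phgdh (-1.53) and Psph (-0.61), and liver against bone marrow for Phgdh (-1.49) and Psph (-0.65). The liver values of Phgdh in this comparison were known when the genes were chosen, so its differences are no independent support.

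In 21 of 288 combinations of a gene and a group of 4 rats, on 19 arrays, 1 rat lay far from the other 3. The measure was Dixon's ratio of that gap to the range of the group. Chance alone gives about 5% of such combinations. Genes of the same array were counted separately, although their values are related. In liver, rat 3M28 (temsirolimus and water, 6 h) was high for Phgdh at 9.34 and for Psat1 at 10.01, where the others reached 7.86 and 7.96. In the same group rat 3M33 was low for Psph at 7.49. The other livers were rat 1M6 (TEM_vehicle and water, 24 h), low for Phgdh at 7.83, rat 5M49 (temsirolimus and sunitinib, 1 h), high for Psph at 8.34, and rat 6M65 (temsirolimus and sorafenib, 24 h), high for Asns at 7.97.

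In heart, rat 6M68, with the highest hepatocyte signal, was high for Asns at 7.21, and rat 8M92 (TEM_vehicle and sorafenib, 1 h) was high for Psat1 at 6.15 and Psph at 7.85. Phgdh was high in rat 1M12 (TEM_vehicle and water, 24 h) at 6.73 and low in rat 2M18 (TEM_vehicle and F68/PG/PEG400, 24 h) at 6.13. Psat1 was high in rat 3M28 at 5.97. Psph was low in rat 6M63 (temsirolimus and sorafenib, 6 h) at 6.91 and high in rat 8M95 (TEM_vehicle and sorafenib, 24 h) at 7.51. Asns was low in rat 6M72 (temsirolimus and sorafenib, 24 h) at 5.39.

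In bone marrow, rat 4M45 was low for Psat1 at 7.44. Phgdh was high in rats 2M14 (TEM_vehicle and F68/PG/PEG400, 1 h) at 9.24 and 6M63 at 9.09. Asns was high in rats 7M75 (TEM_vehicle and sunitinib, 6 h) at 11.93, 4M47 (temsirolimus and F68/PG/PEG400, 24 h) at 11.83 and 5M59 (temsirolimus and sunitinib, 24 h) at 12.03.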

How the results depend on the processing

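Log2 changes of the 4 genes were recomputed under the alternatives. Of these, 323 counted as the same, 34 passed where they had not and 38 no longer passed. The same meant an unchanged direction and side of the threshold. For temsirolimus alone in liver at 24 h, with 16 values for each gene, no threshold was used. There a move smaller than the residual SD of the gene counted as the same. Where an alternative did not apply to a tissue, the value of the model used was counted again as the same. The mean of all probe sets could not move a change either, since each gene had 1 probe set. The remaining 6 changed sign, none of them passing. These were, in bone marrow at 6 h, Asns with temsirolimus alone (0.0114 with water alone as oral vehicle and 0.0352 in array set 1 only), and, for sorafenib after temsirolimus, Phgdh (-0.348 to 0.0282 on leaving out 1 replicate) and Psat1 (-0.0736 to 0.761 on leaving out 1 replicate, -0.0669 without the arrays of rats 4M45 and 4M48), and in heart at 1 h Psat1 with sunitinib after temsirolimus (0.0432 in array set 2 only). Counts of passing tests moved as follows, and causes were not tested. For temsirolimus alone outside the liver at 24 h (0 in the model used), 1 passed with a signal of at least 6, with the mean of all probe sets and in array set 2 only, and 3 with F68/PG/PEG400 alone as oral vehicle. For temsirolimus with an oral drug (4), 1 passed with sunitinib alone, 0 with sorafenib alone and 0 in array set 1 only. For sunitinib alone (0) and sunitinib after temsirolimus (0), 1 each passed in array set 1 only. For sorafenib alone (0), 1 passed without the arrays of rats 4M45 and 4M48, which the paper names as potential outliers. For sorafenib after temsirolimus (1), 2 passed with a signal of at least 6, with renewed quantile normalization and without those arrays, 0 in array set 1 only and 3 in array set 2 only. For temsirolimus by time (0), 1 passed without the arrays that stand apart. Leaving out 1 replicate gave 0 to 1 for temsirolimus alone, 0 to 4 for temsirolimus with an oral drug, 0 to 1 for sunitinib alone, 0 to 1 for sorafenib alone, 1 to 2 for sorafenib after temsirolimus and 0 to 7 for temsirolimus by tissue (4), with 0 without replicate 2 and without replicate 3.

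Genes passing in liver at 24 h ranged from 1 to 1146 for temsirolimus alone (439), the lowest in array set 1 only and the highest without rat 7M78, and from 9 to 1708 with an oral drug (1117), the lowest in array set 1 only and the highest without replicate 1. Without the replicate block, that is without the rat as block, the difference between liver and heart for Phgdh was -1.53 and no longer passed (adjusted p = 0.076), while 3 of the 4 differences between tissues still did. Replicate numbers follow accession order, so no other pairing was possible.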
